A study of Caenorhabditis elegans with 16 samples.

Results

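Ascarosides are small signalling molecules that nematodes release as pheromones, among them the signal that drives young larvae into the dauer stage. Each carries a sugar with a fatty acid side chain, and long side chains are shortened inside peroxisomes by rounds of beta-oxidation. In every round an acyl-CoA oxidase (ACOX) makes the first double bond, the enoyl-CoA hydratase MAOC-1 adds water, the dehydrogenase DHS-28 oxidises the product, and the thiolase DAF-22 releases the shortened chain. Different ACOX enzymes act on side chains of different length and type. The 9 genes described here were chosen by name for these steps: acox-1.1, acox-1.2, acox-1.3, acox-1.4, acox-1.5, acox-3, maoc-1, dhs-28 and daf-22. They are 9 of 29351 genes with a row of normalized counts, and all 9 averaged at least 10 normalized counts over the samples, as did the 15799 genes that entered the tests.

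RNA was sequenced from whole Caenorhabditis elegans in 4 groups of 4 samples: rnp-6(G281D) on Escherichia coli BW25113, rnp-6(G281D) on OP50, wild type (N2) on BW25113 and wild type on OP50. The mutant carries dh1127, a viable allele with reduced function of rnp-6, the worm ortholog of the splicing factor PUF60. BW25113 is a K12-type strain and OP50 the standard laboratory food. Strains were kept on OP50 at 20 °C, synchronized by egg laying on the test food, and collected as day 1 adults after 3 days of growth. The study describes the mutant as smaller and slower growing on OP50, and reports that BW25113 restored both traits. All groups were collected after the same time, so genotype and stage of development cannot be told apart. The same limit holds for food in either genotype and for any food effect that differs between the genotypes. The labels do not say whether replicates came from separate cultures, so p-values measure only the spread between these samples. Whole worms were lysed, so fewer cells of a type and less RNA per cell cannot be told apart.

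Normalized counts summed to 36330390 to 38381707 per sample. Samples of 1 group correlated at r = 0.989 to 0.994 across genes, and samples of different groups at 0.972 to 0.991. The median log2 fold change of all genes tested lay between -0.0033 and 0.0028 in every comparison. In the text, a gene is called where limma gave an adjusted p under 0.05 (Benjamini-Hochberg over the 15799 genes) and an absolute log2 fold change over 0.5. Log2 fold changes are on the scale log2(normalized count + 1) and are followed by their standard error (SE).

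The first 4 of the 6 oxidase genes formed a tandem cluster on chromosome I of WBcel235, all on the plus strand. acox-1.1 (WBGene00008564) spanned 12938555 to 12942227, acox-1.2 (WBGene00008565) 12942280 to 12946588, acox-1.3 (WBGene00008566) 12946932 to 12951099 and acox-1.4 (WBGene00008567) 12951134 to 12954003. The gaps between neighbours were 52, 343 and 34 bp. These genes are paralogs, so a read that fits several of them was divided between them by the quantification, and how many did so was not measured. acox-1.5 (WBGene00008167) lay on chromosome III at 9586618 to 9592192 and acox-3 (WBGene00019060) on chromosome IV at 6245358 to 6248492, both on the minus strand. maoc-1 (WBGene00017123) and daf-22 (WBGene00013284) were both on chromosome II, at 7196276 to 7197495 (plus) and 12423518 to 12425694 (minus). dhs-28 (WBGene00000991) was on chromosome X at 6818438 to 6820080 (plus). Every one of the 9 was annotated as protein coding, with 5 transcripts for acox-1.1 and 1 for each of the others.

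Levels of different genes were compared as normalized counts per kb of annotated exon. On that scale the 3 genes of the later steps stood above the oxidases in every group mean. dhs-28 was the most abundant, at 2099 ± 94.4 in rnp-6(G281D) on BW25113, 3202 ± 121 in rnp-6(G281D) on OP50, 2797 ± 157 in wild type on BW25113 and 3321 ± 43.8 in wild type on OP50 (SD, n = 4 each). daf-22 followed with 1225 ± 37.4, 1509 ± 36.4, 1699.5 ± 65.1 and 1848 ± 64.1 in the same order of groups, then maoc-1 with 918 ± 77.0, 1253 ± 44.02, 1419.9 ± 124 and 1648 ± 71.9. Among the oxidases acox-1.1 was the most abundant by mean in 3 groups, at 666 ± 45.8 in rnp-6(G281D) on BW25113, 854 ± 62.7 in wild type on BW25113 and 899.6 ± 52.3 in wild type on OP50. By FPKM acox-1.1 and acox-1.4 were level in rnp-6(G281D) on BW25113, at 11.93 and 11.94. In rnp-6(G281D) on OP50 acox-1.5 had 921 ± 75.9 and acox-1.1 had 659 ± 39.1, an order that holds per kb of exon but not by the deposited FPKM, where acox-1.5 had 10.7 and acox-1.1 had 11.9.

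**Figure D1:**
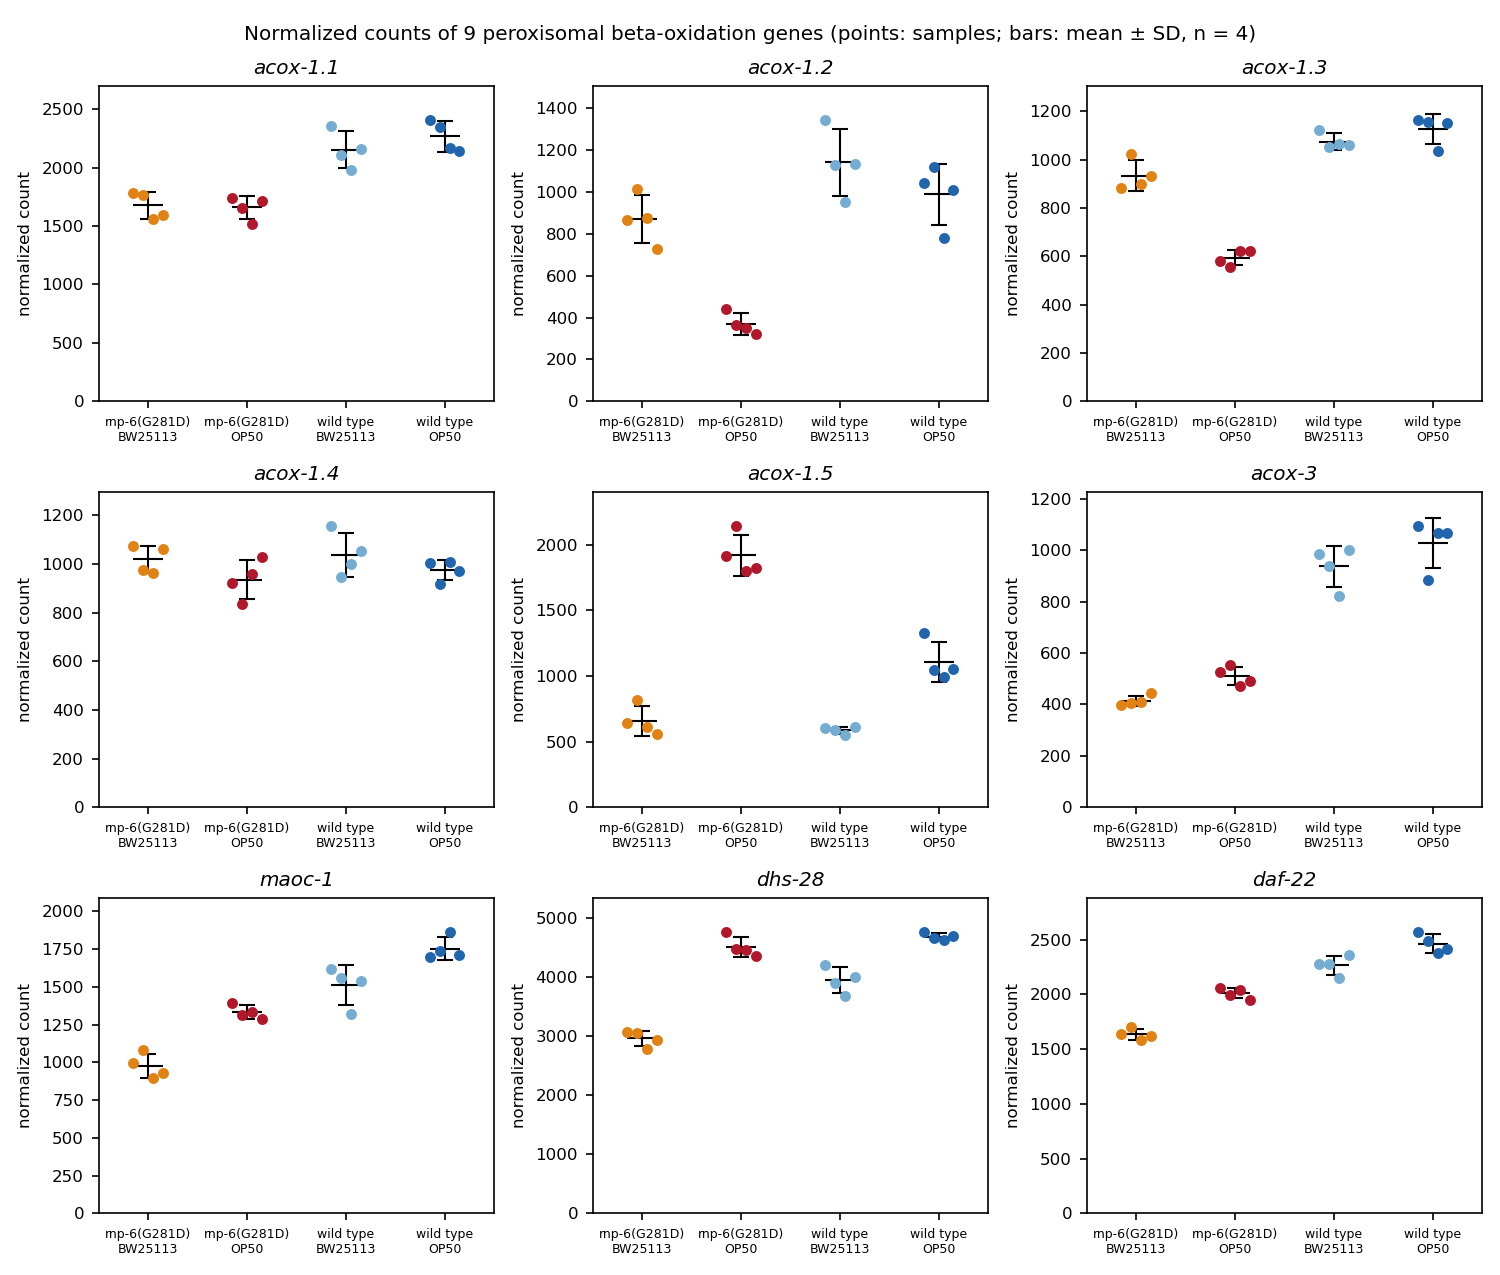
Normalized counts (vertical axes, from 0) of the 9 genes in each sample, in 4 groups per panel. Points are samples and bars give the mean ± SD (n = 4). The rnp-6(G281D) samples on OP50 stand apart for acox-1.2 and acox-1.3 (low, 323 to 443 and 557 to 622) and for acox-1.5 (high, 1798 to 2143), while acox-3 is low in all 8 rnp-6(G281D) samples (399.6 to 553).

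The cluster genes did not move as a block. acox-1.2, which encodes an oxidase that acts on ascaroside side chains, had 443, 363, 350.0 and 323 normalized counts in rnp-6(G281D) on OP50, against 1041, 1120.4, 781 and 1010.2 in wild type on OP50. Every mutant sample was thus below every wild-type sample, and the mutant mean was 37.4% of the wild-type mean (log2 fold change -1.41, SE 0.12, limma adjusted p = 1.2e-05). On BW25113 the gene had 866, 1012, 877 and 727 in rnp-6(G281D), against 1344, 1129.6, 953 and 1134 in wild type. Here 1 mutant sample (1012) lay above the lowest wild-type sample (953), and the difference of -0.39 (SE 0.11, limma adjusted p = 0.036) was under the size threshold. The exact permutation test on these 8 samples gave p = 0.057 (two-sided), while groups that do not overlap give 0.029, the smallest p that 70 divisions allow.

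Its neighbour acox-1.3 showed a like pattern with less spread. It had 582, 557, 622 and 621 normalized counts in rnp-6(G281D) on OP50, against 1165, 1156, 1037 and 1150.5 in wild type on OP50 (log2 fold change -0.92, SE 0.054, limma adjusted p = 1.1e-06). The mutant samples lay close together, and the groups were far apart. On BW25113 the values were 883, 1023, 899 and 933 in rnp-6(G281D), against 1125, 1052, 1065 and 1060.0 in wild type. By normalized counts the groups did not overlap there either, but the gap was narrow. The log2 fold change was -0.20 (SE 0.053, limma adjusted p = 0.025), so the gene was not called. By FPKM the groups on BW25113 overlapped, with the highest mutant sample (9.14) above the lowest wild-type sample (8.94).

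acox-1.1, at the upstream end, was lower in the mutant to a similar degree on both foods. It had 1784, 1767, 1559.9 and 1595 normalized counts in rnp-6(G281D) on BW25113, against 2358, 2111, 1977 and 2163 in wild type on BW25113. On OP50 it had 1741, 1656, 1521 and 1717 in rnp-6(G281D), against 2409, 2347, 2164 and 2145 in wild type. The groups did not overlap on either food. The log2 fold changes were -0.36 on BW25113 (SE 0.061, limma adjusted p = 0.0026) and -0.45 on OP50 (SE 0.052, limma adjusted p = 1.1e-04), both under the size threshold. The genotype effect on this gene was not detectably changed by food: the interaction was 0.09, with a 95% interval of -0.09 to 0.27.

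acox-1.4, at the downstream end, differed from its neighbours in that no comparison gave an adjusted p under 0.05. Its samples ranged between 963 and 1073 normalized counts in rnp-6(G281D) on BW25113, between 837 and 1029.7 in rnp-6(G281D) on OP50, between 944 and 1156 in wild type on BW25113 and between 918 and 1008 in wild type on OP50. All 4 ranges overlapped. The mutant differed from wild type by -0.03 on BW25113 (95% interval -0.17 to 0.12) and by -0.06 on OP50 (95% interval -0.20 to 0.07), so on either food a change as large as the size threshold lay outside the interval.

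acox-1.5 moved the other way on OP50. It had 1914, 2143, 1798 and 1818 normalized counts in rnp-6(G281D) on OP50, against 1327, 1043, 994 and 1051 in wild type on OP50 (log2 fold change 0.80, SE 0.087, limma adjusted p = 7.3e-05). All 4 mutant samples were above all wild-type samples, and the mutant mean was 174% of the wild-type mean. On BW25113 the gene had 640.0, 819.6, 613 and 561 in rnp-6(G281D), against 602, 586, 552 and 613 in wild type. Those groups overlapped, and the difference was 0.15 (95% interval -0.07 to 0.37, limma adjusted p = 0.35). The 8 samples on BW25113, of either genotype, all lay below the 8 samples on OP50.

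acox-3 was the oxidase gene that was lower in the mutant on both foods by more than the size threshold. It had 399.6, 404, 408 and 443 normalized counts in rnp-6(G281D) on BW25113, against 983, 938, 823 and 1002 in wild type on BW25113 (log2 fold change -1.17, SE 0.069, limma adjusted p = 1.3e-06). On OP50 it had 524, 553, 472 and 491 in rnp-6(G281D), against 1094, 883, 1065 and 1068 in wild type (log2 fold change -1.01, SE 0.075, limma adjusted p = 5.3e-06). The 8 mutant samples and the 8 wild-type samples did not overlap, whichever food they were on. The interaction was -0.17 with a 95% interval of -0.39 to 0.06.

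Of the genes for the later steps, maoc-1 was called in the mutant on 1 food. It had 994, 1084, 899 and 929 normalized counts in rnp-6(G281D) on BW25113, against 1621, 1560.0, 1318 and 1538 in wild type on BW25113 (log2 fold change -0.63, SE 0.073, limma adjusted p = 2.2e-04). On OP50 it had 1396, 1312, 1333 and 1287 in rnp-6(G281D), against 1701, 1736, 1864 and 1708 in wild type (log2 fold change -0.40, SE 0.041, limma adjusted p = 5.0e-05). The groups did not overlap on either food, and the difference on OP50 stayed under the size threshold. The 2 effects are not shown to differ, since the interaction was -0.23 with a limma adjusted p of 0.17.

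daf-22, the thiolase gene that closes the round, was lower in the mutant on both foods by a smaller amount. It had 1638, 1698, 1579 and 1618 normalized counts in rnp-6(G281D) on BW25113, against 2278, 2278, 2148 and 2357 in wild type on BW25113 (log2 fold change -0.47, SE 0.039, limma adjusted p = 1.9e-05). On OP50 it had 2061, 1994, 2038 and 1952 in rnp-6(G281D), against 2571, 2489, 2380.3 and 2412 in wild type (log2 fold change -0.29, SE 0.033, limma adjusted p = 1.0e-04). Neither pair of groups overlapped and neither difference reached the size threshold. The order of the group means, from low to high, was rnp-6(G281D) on BW25113, rnp-6(G281D) on OP50, wild type on BW25113 and wild type on OP50. No neighbours in that order overlapped, although the wild-type groups lay close, at 2148 to 2357 on BW25113 and 2380.3 to 2571 on OP50.

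For dhs-28, no difference between the genotypes was detected on OP50. It had 4754, 4479, 4454 and 4357 normalized counts in rnp-6(G281D) on OP50, against 4762, 4654, 4617 and 4683 in wild type on OP50. The difference was -0.05 with a 95% interval of -0.12 to 0.01, and these ranges overlapped. On BW25113 the gene had 3065, 3057, 2783 and 2926 in rnp-6(G281D), against 4202, 3895, 3669 and 3999 in wild type, with no overlap (log2 fold change -0.41, SE 0.046, limma adjusted p = 1.7e-04). The 2 differences differed from each other, with an interaction of -0.36 (SE 0.057, limma adjusted p = 7.7e-04).

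**Figure D2:**
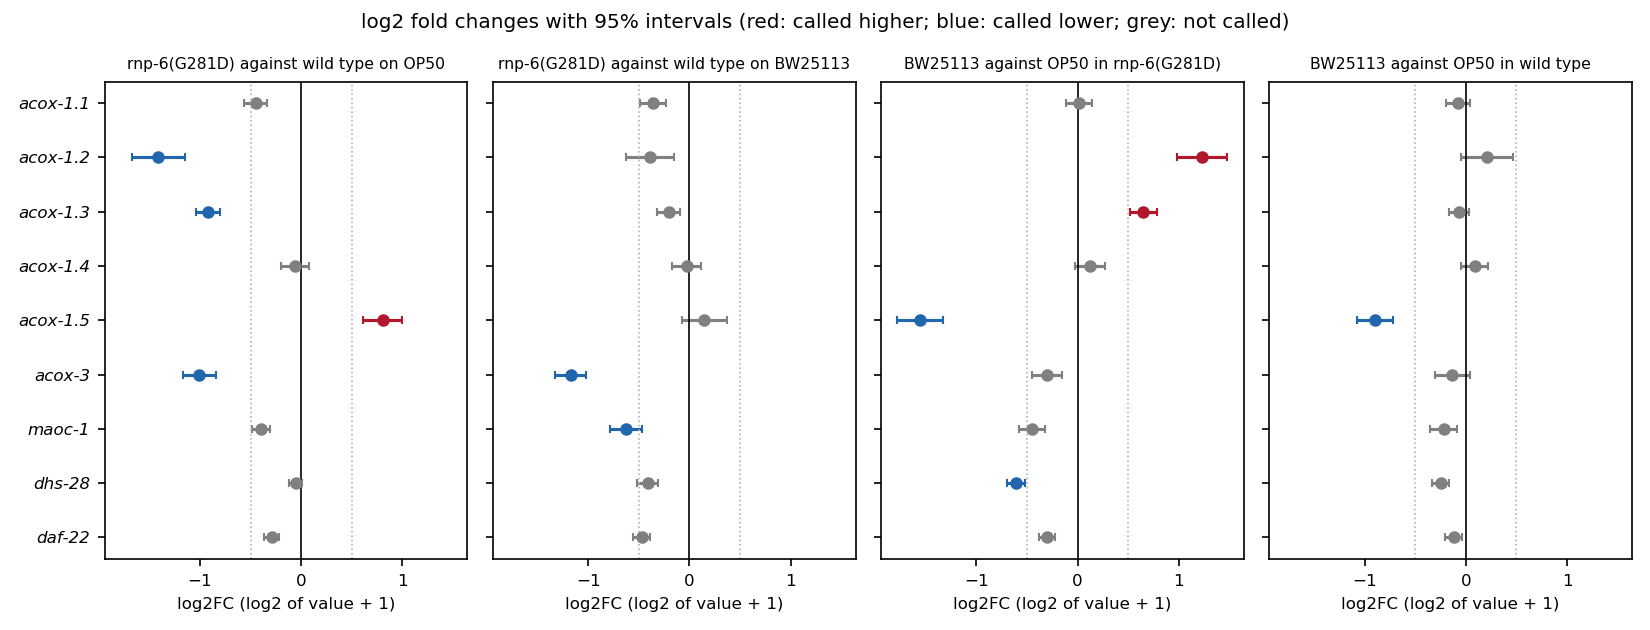
Log2 fold changes of the 9 genes with 95% intervals in the 4 comparisons, on the scale log2(normalized count + 1), with dotted lines at the size threshold of 0.5 in either direction. Red and blue points were called higher and lower, and grey points were not called. On OP50 the mutant differs most for acox-1.2 (-1.41), and acox-3 is called lower in the mutant on both foods (-1.17 and -1.01).

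Counted by comparison, 4 of the 9 genes were called between the mutant and wild type on OP50, where 11.5% of all genes tested were called. acox-1.5 rose (1 of 9, beside 5.9% of all genes called higher), and acox-1.2, acox-1.3 and acox-3 fell (3 of 9, beside 5.6% called lower). Groups did not overlap for 7 of the 9 genes, beside 30.7% of all genes. The median log2 fold change of the 9 was -0.40, beside 0.0011 over all genes. Between the genotypes on BW25113, 2 of the 9 genes were called, beside 5.68% of all genes. acox-3 and maoc-1 fell, beside 3.47% of all genes called lower, and none of the 9 rose, beside 2.22% called higher. Groups did not overlap for 6 of the 9, beside 20.3% of all genes. The median of the 9 there was -0.39, beside -0.0016. Both comparisons use separate samples, and the 7 genes with an adjusted p under 0.05 on BW25113 were all lower in the mutant, against 6 lower and 1 higher on OP50. For acox-1.2 and acox-1.3 on BW25113 this depended on the processing. Over the alternatives their limma adjusted p there ran up to 0.17 and 0.084. The share of all genes with an adjusted p under 0.05 at any size was not counted for these comparisons. Of the 15799 genes, 4656 on BW25113 and 6251 on OP50 had an unadjusted limma p under 0.05, which bounds that share from above.

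Food was compared within each genotype. In rnp-6(G281D), BW25113 against OP50 called 4 of the 9 genes, beside 9.36% of all genes. Of all genes 2.15% were called higher and 7.22% lower, beside 2 of the 9 each way. acox-1.2 rose to 2.35 times its level on OP50 (log2 fold change 1.23, SE 0.11, limma adjusted p = 3.4e-05) and acox-1.3 also rose (0.65, SE 0.061, limma adjusted p = 4.2e-05), a call that was lost by FPKM at 0.496. acox-1.5 fell to 34.3% (-1.55, SE 0.10, limma adjusted p = 3.7e-06) and dhs-28 fell too (-0.61, SE 0.040, limma adjusted p = 3.6e-06). For these 4 genes no sample on BW25113 overlapped a sample on OP50, which held for 7 of the 9 genes beside 23.1% of all genes. The comparison uses the same 4 rnp-6(G281D) samples on OP50 as the genotype comparison on OP50, so the fold changes of both stand side by side here without being independent. maoc-1, daf-22 and acox-3 were lower on BW25113 by -0.45, -0.30 and -0.30, under the size threshold, with limma adjusted p-values of 4.9e-04, 2.6e-04 and 0.012. acox-1.1 differed by 0.01 (95% interval -0.11 to 0.14).

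In wild type the same change of food called 1 gene of the 9, beside 3.33% of all genes (0.741% higher and 2.59% lower), namely acox-1.5. It fell to 53.3% of its level on OP50 (log2 fold change -0.90, SE 0.081, limma adjusted p = 8.9e-05). Groups did not overlap for 4 of the 9 genes, acox-1.5, maoc-1, dhs-28 and daf-22, beside 13.4% of all genes. The smaller differences were -0.25 for dhs-28 (limma adjusted p = 0.0031), -0.22 for maoc-1 (0.055) and -0.12 for daf-22 (0.078). acox-1.2 differed by 0.21 (limma adjusted p = 0.34) and acox-1.3 by -0.07 (0.46). In the fit with a replicate block daf-22 had a limma adjusted p of 0.039 and acox-1.2 of 0.043, and both stayed under the size threshold.

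**Figure D3:**
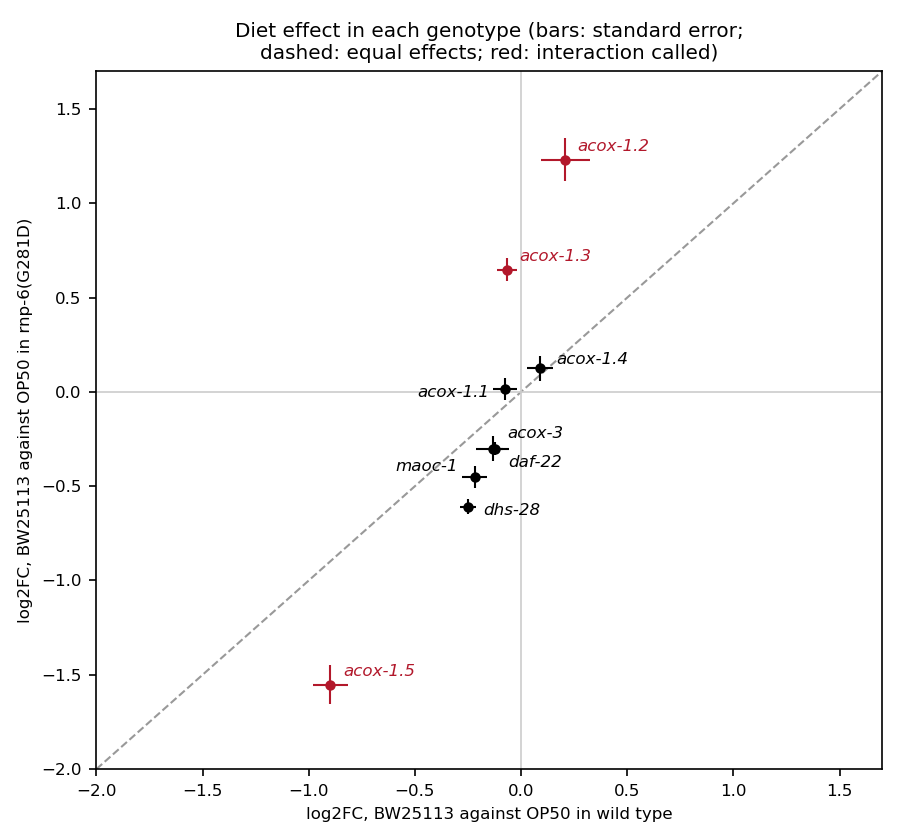
Log2 fold change between the foods, BW25113 over OP50, in rnp-6(G281D) (vertical axis) and in wild type (horizontal axis) for the 9 genes, with bars of 1 standard error in each direction. The dashed line marks equal effects in both genotypes, and red genes were called for the interaction. acox-1.2 and acox-1.3 lie above the line (interactions 1.02 and 0.72) and acox-1.5 below it (-0.65).

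Whether food acted differently in the mutant was tested with the interaction, the food effect in rnp-6(G281D) minus that in wild type, in a fit to all 16 samples. It was called for 3 of the 9 genes, beside 2.42% of all genes. acox-1.2 gave 1.02 (SE 0.18, limma adjusted p = 0.0018) and acox-1.3 gave 0.72 (SE 0.076, limma adjusted p = 1.5e-05), both positive, a direction in which 0.361% of all genes were called. acox-1.5 gave -0.65 (SE 0.14, limma adjusted p = 0.011): it fell on BW25113 in both genotypes, and by more in the mutant, the direction in which 2.06% of all genes were called. Without the size threshold 5 of the 9 genes had an adjusted p under 0.05, beside 4.66% of all genes. The other 2 were dhs-28 (-0.36) and daf-22 (-0.18, SE 0.050, limma adjusted p = 0.049, and between 0.023 and 0.103 over the alternatives). The interaction call of acox-1.3 was lost by FPKM (0.49) and that of acox-1.5 without a filter on low values (limma adjusted p = 0.052), which leaves 2 called in either case.

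The same values can be read as the distance of rnp-6(G281D) on BW25113 from wild type on OP50, given as a description. The mutant mean on BW25113 was 88.1% of the wild-type mean on OP50 for acox-1.2 and 82.9% for acox-1.3, against 37.4% and 52.8% for the mutant on OP50. For acox-1.5 it was 59.6%, where the mutant on OP50 had 174%. For acox-3 it was 40.2% and for maoc-1 55.7%, where the mutant on OP50 had 49.7% and 76.0%. dhs-28 and daf-22 were at 63.2% and 66.3% in the mutant on BW25113, against 96.4% and 81.6% in the mutant on OP50.

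The make-up of the oxidase transcripts was set out as the share of each gene in the 6 oxidase genes, per kb of exon. acox-1.5 held 12.4% ± 1.4 of the total in rnp-6(G281D) on BW25113, 33.6% ± 2.2 in rnp-6(G281D) on OP50, 8.97% ± 0.39 in wild type on BW25113 and 15.5% ± 1.3 in wild type on OP50 (SD, n = 4 each). The share of acox-1.2 was 16.5% ± 1.5, 6.51% ± 0.82, 17.4% ± 1.2 and 13.95% ± 1.74 in the same order. acox-1.1 took a more even share, with group means between 24.0% ± 0.90 (rnp-6(G281D) on OP50) and 27.1% ± 0.17 (wild type on BW25113). The summed level of the 6 genes was 2538 ± 148 normalized counts per kb in rnp-6(G281D) on BW25113, 2740.2 ± 83.2 in rnp-6(G281D) on OP50, 3154 ± 229 in wild type on BW25113 and 3412 ± 189 in wild type on OP50.

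**Figure D4:**
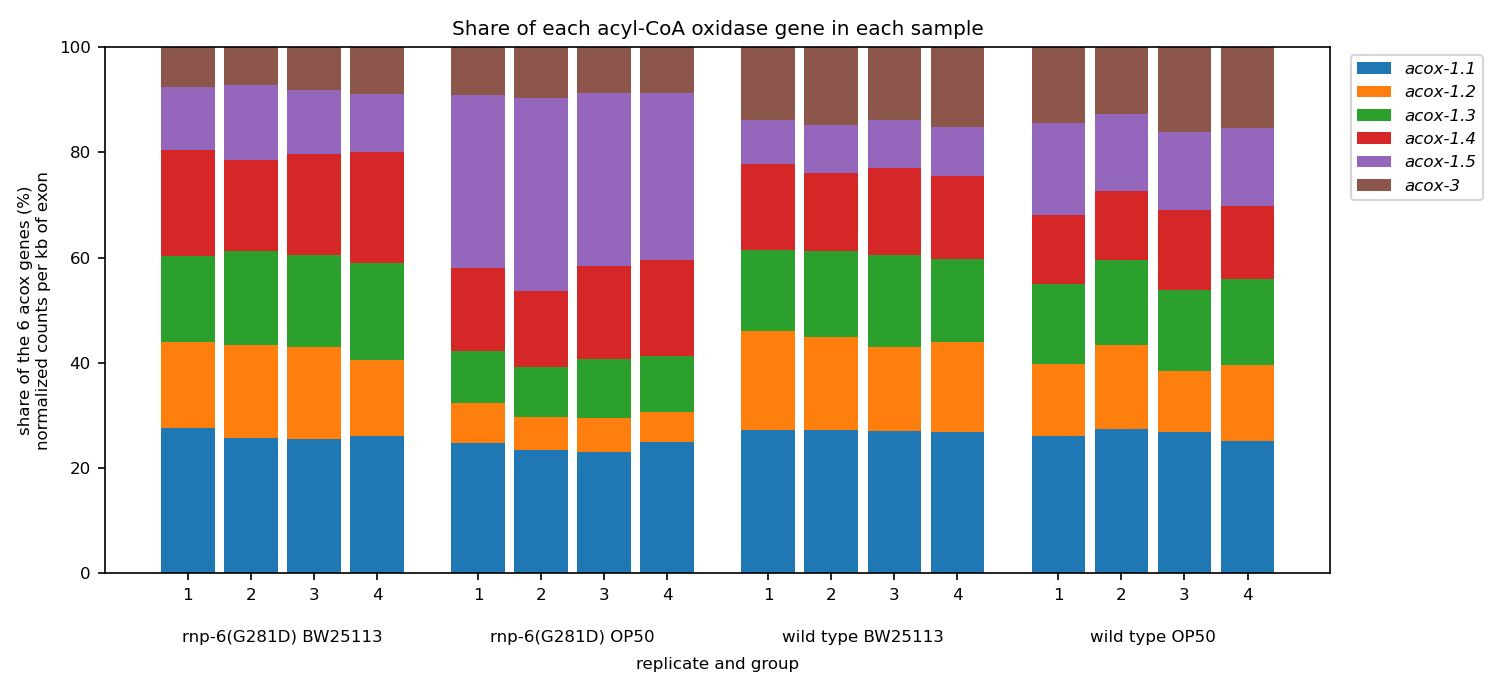
Share of each of the 6 oxidase genes in their summed normalized counts per kb of exon, in percent (vertical axis), for each of the 16 samples (horizontal axis, by group and replicate). Each bar is 1 sample. In the 4 rnp-6(G281D) samples on OP50 the acox-1.5 part is widest (31.8% to 36.7%) and the acox-1.2 part narrowest (5.69% to 7.64%).

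The ratio of acox-1.5 to acox-1.2 was taken within each sample. It was 4.30, 5.86, 5.11 and 5.59 in rnp-6(G281D) on OP50, against 1.27, 0.925, 1.27 and 1.03 in wild type on OP50, a comparison of normalized counts per kb of exon within each sample. On BW25113 it was 0.734, 0.805, 0.695 and 0.768 in rnp-6(G281D), against 0.446, 0.516, 0.576 and 0.538 in wild type. No group overlapped another. The ratio of dhs-28 to daf-22 on the same scale was 1.71 ± 0.043 in rnp-6(G281D) on BW25113, 2.12 ± 0.047 in rnp-6(G281D) on OP50, 1.65 ± 0.066 in wild type on BW25113 and 1.80 ± 0.044 in wild type on OP50 (SD, n = 4 each). These ratios were chosen after the values of the genes were known and carry no test.

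For the 6 genes called in at least 1 comparison of genotype or food, the genes with the most similar pattern over the 16 samples were found by the root mean square difference of log2 values, each gene centred on its own mean. For acox-1.2 these were F10A3.4 (0.159) and T05E7.1 (0.214), and for acox-1.3 pgp-13, an ABC transporter gene of the P-glycoprotein family (0.133), and T01D1.3 (0.135). For acox-1.5 they were the lysozyme gene lys-4 (0.236) and F14F9.4 (0.252). acox-3 was nearest to clec-209, a C-type lectin gene (0.135), listed under 2 gene IDs with identical values in every sample. maoc-1 was nearest to acds-10, named for acyl-CoA dehydrogenases (0.098), and fbxa-72 (0.107). dhs-28 was nearest to cpr-9, a cysteine protease gene (0.067), and Y69H2.3 (0.072). No gene of the 9 was among the nearest of another.

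Genes that act around the pathway were counted from lists chosen for their function. The list for activation and assembly of ascarosides held 9 genes, all tested: acs-7, an acyl-CoA synthetase with a role in ascaroside assembly, glo-1, a GTPase needed for the gut granules where modified ascarosides are made, and 7 carboxylesterase genes (cest), members of a family that attaches further groups. On OP50, 3 of these fell in the mutant and 1 rose, beside 5.6% of all genes called lower and 5.9% called higher. On BW25113, 4 fell and none rose, beside 3.47% lower and 2.22% higher. acs-7 had 338 ± 14.8 normalized counts in rnp-6(G281D) on OP50 and 693 ± 34.6 in wild type on OP50 (log2 fold change -1.03, limma adjusted p = 7.5e-07), and 361 ± 42.2 in rnp-6(G281D) on BW25113 and 620.3 ± 52.4 in wild type on BW25113 (-0.78, limma adjusted p = 2.3e-04; SD, n = 4 each).

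The esterase genes did not all share that direction. cest-2.2 fell in the mutant by 1.44 on the log2 scale on OP50 and by 1.08 on BW25113, and cest-3 by 2.05 and by 1.31. cest-3 also rose on BW25113 against OP50 in the mutant (0.85, limma adjusted p = 0.018). cest-8 had 122 ± 16.1 normalized counts in rnp-6(G281D) on OP50 and 51.2 ± 10.0 in wild type on OP50, where it rose (1.245, limma adjusted p = 2.8e-04). On BW25113 it had 91.0 ± 11.6 in rnp-6(G281D) and 142 ± 31.5 in wild type, groups that overlapped (-0.62, limma adjusted p = 0.037). Its interaction of -1.86 was called (limma adjusted p = 1.4e-04), and in wild type it rose on BW25113 (1.45). The remaining 5 genes of the list (cest-1.1, cest-4, cest-9.2, cest-33 and glo-1) were not called in any comparison.

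**Figure D5:**
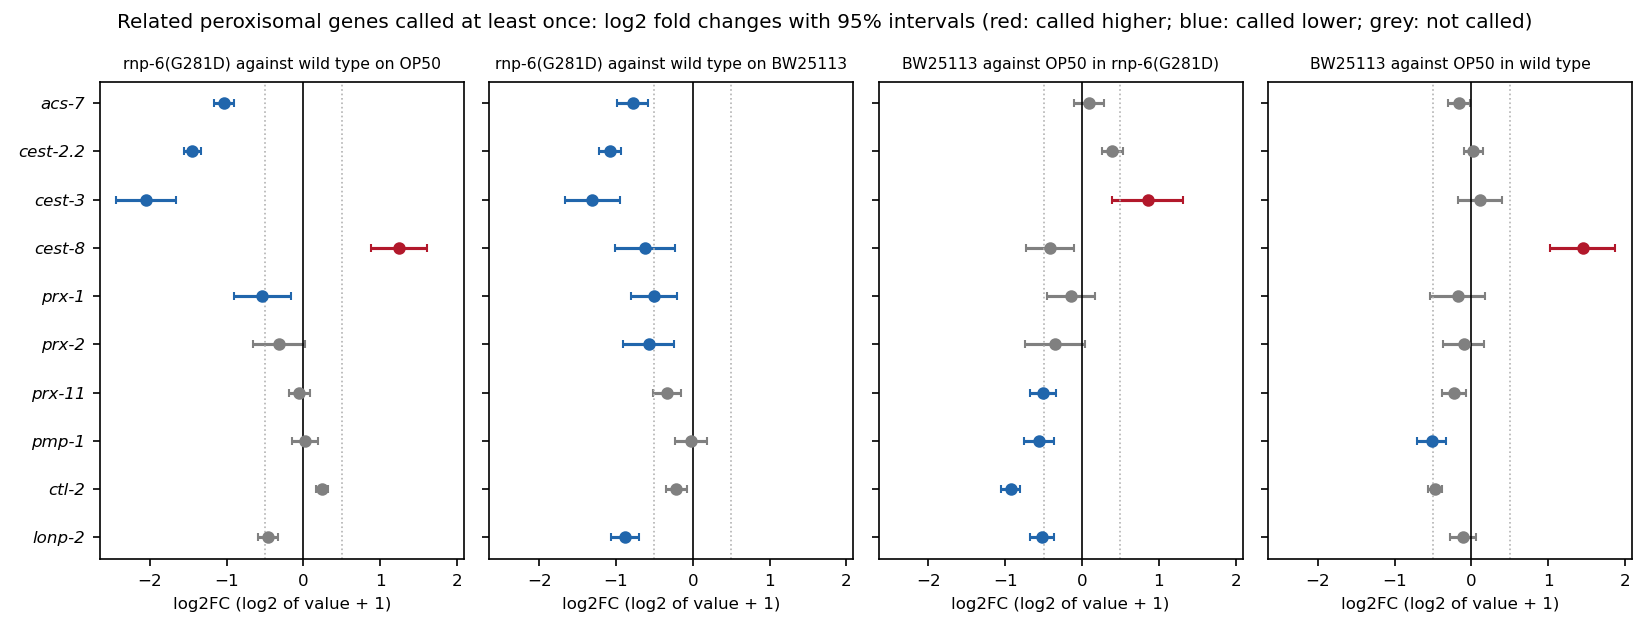
Log2 fold changes with 95% intervals, on the scale log2(normalized count + 1), of 10 further peroxisomal and ascaroside genes that were called at least once in these 4 comparisons. Red and blue points were called higher and lower, grey points were not called, and dotted lines mark the size threshold of 0.5. acs-7, cest-2.2 and cest-3 are lower in the mutant on both foods, and cest-8 is higher on OP50 (1.245) and lower on BW25113 (-0.62).

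Of 11 peroxin genes (prx), which serve import and assembly of the peroxisome, 1 was called lower in the mutant on OP50 (beside 5.6% of all genes) and 2 on BW25113 (beside 3.47%), and none was called higher. prx-1 was called on both foods (-0.54 and -0.50) and prx-2 on BW25113 (-0.57), and the groups overlapped in all 3 cases. By FPKM the direction of prx-2 on BW25113 was the opposite, with a mean of 15.2 ± 0.89 in rnp-6(G281D) and 14.6 ± 0.37 in wild type (SD, n = 4 each). In the mutant, prx-11 fell on BW25113 against OP50 (-0.51). Among 5 ABC transporter genes (pmp), pmp-1 fell on BW25113 in both genotypes, by 0.56 in rnp-6(G281D) and by 0.52 in wild type, and the genotypes did not differ detectably in it on either food (0.02 on OP50, 95% interval -0.15 to 0.19).

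Of 6 genes for other peroxisomal enzymes, 2 were called lower on BW25113 against OP50 in the mutant, beside 7.22% of all genes. Between the genotypes, 1 was called lower on BW25113, beside 3.47% of all genes. None was called between the genotypes on OP50 or for food in wild type. The catalase gene ctl-2 had 1273 ± 107 normalized counts in rnp-6(G281D) on BW25113 and 2422 ± 97.6 in rnp-6(G281D) on OP50 (-0.93, limma adjusted p = 2.4e-06). In wild type it had 1472 ± 73.5 on BW25113 and 2049 ± 66.6 on OP50, a difference of -0.48 that was just under the size threshold. lonp-2, which encodes the peroxisomal Lon protease, was lower in the mutant on BW25113 (-0.88, limma adjusted p = 5.7e-05) and fell on BW25113 against OP50 in the mutant (-0.53, limma adjusted p = 5.2e-04). On OP50 it was also lower in the mutant, without overlap but under the size threshold (-0.46, limma adjusted p = 2.1e-04). acox-1.6, the other oxidase gene of the same name series, was not called in any comparison; its largest difference was -0.26 in the mutant on OP50 (limma adjusted p = 0.034). None of 7 genes for regulators of lipid metabolism, nhr-49 and sbp-1 among them, was called. Of 8 ascaroside receptor genes, daf-37 and daf-38 passed the filter on low values and neither was called.

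Markers of tissues were read beside these results. The summed normalized counts of 6 intestine markers, a tissue in which this pathway is known to act, were 40262 to 44209 in rnp-6(G281D) on OP50, against 36044 to 39154 in wild type on OP50. The sum moved in the same direction as acox-1.5 and opposite to acox-1.1, acox-1.2, acox-1.3, acox-3, maoc-1 and daf-22. No marker was at 0 in any group, and the part of the sum in these differences was not tested. On BW25113 the sum was 32866 to 37402 in rnp-6(G281D), against 34476 to 37958 in wild type, and these ranges overlapped. In the mutant the sum on BW25113 was thus below that on OP50, in the same direction as dhs-28, acox-1.5, maoc-1, daf-22 and acox-3. It moved opposite to acox-1.2 and acox-1.3, and its part in those differences was not tested. Of 4 hypodermis markers tested, the cuticle genes dpy-7, dpy-13 and sqt-3 were called higher in rnp-6(G281D) on OP50 (1.52, 1.71 and 1.17), while col-19 differed by 0.02. The sum over the 5 listed hypodermis markers was 72887 to 89484 in rnp-6(G281D) on OP50, against 74947 to 82855 in wild type on OP50, with no marker at 0. Nearly all of it was col-19, at 80191 of a mean sum of 80772 in the mutant and 78741 of 78956 in wild type. The sum therefore says little of the other markers. rol-6, under the filter, averaged 11.4 in the mutant and 2.91 in wild type on OP50. The part of the hypodermis markers in the results was not tested. On OP50 the 5 germ cell markers summed to 57005 to 57944 in rnp-6(G281D), against 64682 to 67023 in wild type, without overlap, and glh-1 was called lower (-0.58). By their means pgl-1 and pgl-3 were also lower in the mutant. The other markers of that list were higher, gld-1 at 9287 against 8666 in wild type and htp-3 at 5445 against 5100. The 5 neuron markers summed to 3069 to 3439.9 in rnp-6(G281D) on OP50, against 2811 to 3022 in wild type on OP50, also without overlap, with none of them called and none of either list at 0. Of the yolk genes, vit-1 (-1.296) and vit-5 (-0.52) were called lower in rnp-6(G281D) on OP50. The means of vit-2, vit-3, vit-4 and vit-6 were higher in the mutant there, and none of these was called. The sums over the 6 yolk genes overlapped on OP50, at 491839 to 566171 in rnp-6(G281D) and 531049 to 557529 in wild type. The part of these genes in the results was not tested. The 6 yolk genes summed to 677091 to 714620.4 in rnp-6(G281D) on BW25113, against 491839 to 566171 in rnp-6(G281D) on OP50, which also was not tested for its part.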

How the data were processed

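Total RNA of whole worms was depleted of ribosomal RNA and made into stranded libraries. Per the submitters' processing notes, kallisto 0.46.1, DESeq2 1.24 and Cufflinks 2.2.1 were used with WBcel235. The authors deposited normalized counts (a signal, median-of-ratios scaled, not whole numbers) and FPKM for all 16 samples. No column was left without a sample.

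Since the deposited counts are normalized, the count test of the study was replaced by limma 3.58.1 (R 4.3.3) with a trend on log2(value + 1), for each pair of groups (8 samples) and for the interaction (16 samples), over the 15799 genes averaging 10 or more, with Benjamini-Hochberg adjustment. Whole reads could not be recovered: 28.2% to 65.1% of low values lay on a common step, which gave an approximate depth of 32600000 to 48200000 per sample. A two-sided exact permutation test over 70 divisions was run for each of the 9 genes. The scripts were tested on simulated data.

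Level between genes was to be read from FPKM. The gene length implied by the deposited FPKM was closer to the whole gene span than to the exons in 92.1% of 5622 intron-rich genes, so normalized counts per kb of exon were used, with exons from Ensembl release 115. Deviations of samples with the same replicate number correlated at 0.20 to 0.30 (genotypes on OP50), 0.10 to 0.47 (genotypes on BW25113) and 0.21 to 0.56 (foods in wild type), but at -0.06 to 0.27 for foods in rnp-6(G281D), across genes averaging 100 or more. Fits with that number as a block were therefore run.

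The 9 genes and the lists were chosen with earlier results of these data known. Named genes were all 9, every listed gene called at least once, and the 2 most similar genes for each of the 9 that was called. Alternatives were another pseudocount, another filter, scaling to 1 total, quantile normalization, 1 fit of all 16 samples, FPKM, the block, and leaving out each sample.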

Additional observations from a re-analysis of the deposited data

Results flagged for a closer look

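In wild type on OP50, 1 sample stood apart for each of 2 genes. For acox-1.3, replicate 3 had 1037 normalized counts. On the scale log2(normalized count + 1), its gap to the nearest other sample was 0.89 of the whole range of the 4 samples. For acox-3, replicate 2 had 883 normalized counts, with a gap of 0.872 of the range on the same log2 scale. Both gaps exceed the 95% limit of Dixon's test for 4 samples. In all 36 groups of values were examined, of which chance flags about 1 in 20, or 1.8.

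The effect of food differed between rnp-6(G281D) and wild type for 5 genes by limma's interaction test. The difference on the log2 scale was 1.02 for acox-1.2 and 0.72 for acox-1.3, which rose on BW25113 in the mutant and were not called in wild type. For acox-1.5 it was -0.65, for dhs-28 -0.36 and for daf-22 -0.18 (limma adjusted p = 0.049, and up to 0.103 under the alternatives), all lower on BW25113 in both genotypes by their means.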

How the results depend on the processing

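The count of the 9 genes called stayed within 1.5 times its value under every alternative run. Leaving out 1 sample gave 4 on OP50 and 2 on BW25113 for the genotypes, 4 to 5 for food in rnp-6(G281D), 1 for food in wild type and 3 for the interaction. The fifth gene was maoc-1, at -0.50 without replicate 2 of rnp-6(G281D) on BW25113. With the replicate block the counts were 4, 2, 4, 1 and 3 in that order, and it changed no call of the 9 genes. Under the other alternatives, 391 values of single genes kept their direction and their side of the thresholds and 5 did not. Those that turned round were all small: the food effect on acox-1.1 in rnp-6(G281D) was -0.0019 with samples scaled to the same total, and that on acox-1.3 in wild type was 0.0047 by FPKM. Leaving out 1 sample gave -0.070 to 0.028 for acox-1.4 in the mutant on BW25113, -0.026 to 0.048 for acox-1.1 and food in the mutant, and -0.016 to 0.090 for the interaction of acox-1.4. By FPKM the food effect on acox-1.3 in the mutant was 0.50 and its interaction 0.49, just under the size threshold, so that 3 and 2 genes were called, and with no filter the interaction of acox-1.5 had an adjusted p of 0.052, leaving 2. The causes were not tested. By FPKM the share of acox-1.5 among the oxidases in rnp-6(G281D) on OP50 was 23.0%, against 33.6% per kb of exon, which puts it below acox-1.1 (25.5%). Over all genes, the count called for food in wild type was 526, and 270 with a filter at a mean of 100 or 167 with no filter. These counts are out of 15799, 10252 and 29351 genes, so they do not compare as shares. For food in rnp-6(G281D) it was 1479, against 792 and 850 under the same filters. For genotype it was 898 on BW25113 and 1816 on OP50, against 434 and 890 at a mean of 100. With food in wild type, leaving out replicate 1 or 4 on OP50 or replicate 2 on BW25113 gave 280, 275 and 305.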
